A study of Mus musculus with 117 samples.

Results

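The genes described here are 10 genes that mark tissue-resident macrophages in the mouse: Vsig4, Timd4, Cd163, Folr2, Mrc1, Lyve1, Fcna, Cd209f, Cd209g and Fcrls. They were listed by name, and all 10 were found among the 17097 genes measured. Each gene was read from 1 probe set with a single gene symbol. Lyve1 had a second probe set, which was dimmer (mean over all arrays 7.0 against 7.25 on the log2 scale) and was used only in an alternative. The genes were chosen by measured values: the difference between the 2 sorted groups of lung was known, and for Cd209f also the average of such differences over 6 tissues. Comparisons that use the lung cells or this average, and every sort comparison of Cd209f, are therefore given as descriptions without a test. The other tissues enter the average over 6 tissues, which had been seen, so their counts are not independent of earlier results. Tumours set against sorted cells share this limit, above all for Cd209f.

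Resident macrophages are long-lived phagocytes of the tissues. Many of them are seeded before birth, and they clear dying cells, old red cells, microbes and modified proteins through scavenger, lectin and complement receptors. The Kupffer cells of the liver sinusoids and the macrophages around the vessels of lung, uterus and other organs carry overlapping but unequal sets of these receptors. Several of the receptors also occur on endothelium, Lyve1 on lymphatic endothelium and both Lyve1 and Mrc1 on the sinusoidal endothelium of the liver.

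RNA was measured on 117 single-colour Affymetrix arrays of samples from C57BL/6 mice. In 51 of the samples the RNA was of normal cells, which anti-Prom1 MicroBeads had divided into a Prom1-negative and a Prom1-positive fraction after 6 tissues were dissociated. There were 5 negative and 3 positive samples of prostate, 7 and 3 of lung, 5 and 3 of intestine, 7 and 4 of liver, 4 and 3 of stomach, and 3 and 4 of uterus. In the remaining 66 samples whole frozen tumours were measured. Adenocarcinomas came from stomach (11), prostate (10) and uterus (9), and there were 13 hepatocellular carcinomas, 14 papillary adenomas of the bronchi, 6 squamous skin carcinomas and 3 lymphomas of B cells. The series text speaks of conditional Prom1 mutants that developed tumours, but the labels used here give no allele, Cre driver, age or treatment for any sample, so tumour state, genotype and handling cannot be told apart. Whether the samples of a group are different animals is not in the labels. The p-values therefore measure sample-to-sample spread, part of which may be technical. Tumours are numbered in the order of their records, and sorted samples by the number in their titles.

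The values are log2 probe set signals, on which 1 unit is a doubling. Array medians lay between 3.63 and 4.01, and a signal near or under the median of its array can be background, and a difference from such a level may be too small. Precision is limited by how many arrays a group has. The upper quartile was under 6 in 6 arrays of sorted cells, Prom1-positive samples 4 of lung, 2 and 3 of liver, and 2 and 3 of stomach, and 1 of the 2 Prom1-negative stomach samples numbered 2. The last of these had the lowest upper quartile of all arrays (5.05) and a median correlation of 0.71 with the samples of its group. Epithelial marker lists of the labelled organ averaged between 8.95 and 13.03 in sorted prostate, lung, intestine, liver and stomach groups. Of 4 uterine genes, 3 were above the array median in each sorted uterine sample. Fewer of these markers were above the array median in part of the tumours: 0 to 3 of 3 prostate genes in prostatic adenocarcinomas, 1 to 5 of 5 stomach genes in gastric adenocarcinomas and 1 to 3 of 4 uterine genes in uterine adenocarcinomas. In 4 samples markers of another organ were bright. The lung surfactant gene Sftpc was at 12.65 and 11.50 in hepatocellular carcinomas 1 and 8 and at 8.72 in prostate Prom1-negative sample 3, and the albumin gene Alb was at 13.35 in uterine adenocarcinoma 6, against at most 7.86 for Sftpc outside lung and 8.40 for Alb outside liver in the other samples. Results are given with and without these 4 samples where that changed a call.

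To show what lies before the start sites of genes on which the results turn, the 250 bases upstream are printed for 6 of them, from RefSeq (mouse GRCm38.p6), 5′ to 3′ on the strand of the gene. Of the 10 genes, 9 were in that promoter table, and Lyve1 was not. For Vsig4 (chrX:96293439-96293688, minus strand), Timd4 (chr11:46810549-46810798, plus strand), Fcna (chr2:25627975-25628224, minus strand) and Cd163 (chr6:124304401-124304650, plus strand), capitals mark matches to GAGGAA, the core bound by the myeloid factor PU.1, and to TGCTGAC, a half-site of Maf factors, each searched on both strands. For the neighbours Cd209f (chr8:4105765-4106014, minus strand) and Cd209g (chr8:4134486-4134735, plus strand), capitals mark the longest run of bases that is the same in both.
Vsig4: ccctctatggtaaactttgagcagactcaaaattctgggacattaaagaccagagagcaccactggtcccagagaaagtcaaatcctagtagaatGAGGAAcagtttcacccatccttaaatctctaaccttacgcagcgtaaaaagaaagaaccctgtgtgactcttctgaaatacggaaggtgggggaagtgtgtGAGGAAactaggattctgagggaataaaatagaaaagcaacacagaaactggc
Timd4: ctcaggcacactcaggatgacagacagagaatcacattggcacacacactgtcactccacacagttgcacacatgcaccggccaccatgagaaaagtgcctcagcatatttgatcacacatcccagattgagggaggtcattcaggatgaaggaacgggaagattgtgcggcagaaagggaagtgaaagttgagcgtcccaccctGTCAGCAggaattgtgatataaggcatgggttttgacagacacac
Fcna: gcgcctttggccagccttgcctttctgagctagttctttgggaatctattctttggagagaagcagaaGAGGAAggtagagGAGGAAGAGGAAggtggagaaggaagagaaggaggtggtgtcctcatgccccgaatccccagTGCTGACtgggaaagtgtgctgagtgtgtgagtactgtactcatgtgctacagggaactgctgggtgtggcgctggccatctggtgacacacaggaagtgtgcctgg
Cd163: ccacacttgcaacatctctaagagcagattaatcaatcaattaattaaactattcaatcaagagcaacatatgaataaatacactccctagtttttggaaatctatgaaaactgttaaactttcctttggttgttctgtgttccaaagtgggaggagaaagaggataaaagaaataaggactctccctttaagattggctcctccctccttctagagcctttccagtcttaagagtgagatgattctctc
Cd209f: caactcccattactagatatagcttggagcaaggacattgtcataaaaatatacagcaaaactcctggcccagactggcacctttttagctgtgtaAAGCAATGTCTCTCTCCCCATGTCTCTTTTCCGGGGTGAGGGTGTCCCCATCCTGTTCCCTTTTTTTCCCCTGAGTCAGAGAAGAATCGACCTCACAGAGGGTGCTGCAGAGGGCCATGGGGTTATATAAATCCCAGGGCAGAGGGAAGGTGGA
Cd209g: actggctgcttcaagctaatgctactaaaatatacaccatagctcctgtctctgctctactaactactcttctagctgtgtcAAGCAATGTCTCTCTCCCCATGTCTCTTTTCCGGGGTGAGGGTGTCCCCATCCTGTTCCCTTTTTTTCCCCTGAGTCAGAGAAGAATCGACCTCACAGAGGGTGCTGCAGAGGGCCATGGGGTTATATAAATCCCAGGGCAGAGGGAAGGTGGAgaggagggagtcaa
Over windows of 300 bases (250 before and 50 after the start), GAGGAA was found for 4 of the 9 genes, Vsig4, Fcna, Mrc1 and Fcrls, and in 28.3% of all 32851 promoters of the table. TGCTGAC was found for Fcna and Timd4, 2 of the 9, and in 4.67% of all promoters. The Vsig4 window held GAGGAA at 155 and 53 bases before the start, the Timd4 window held the Maf half-site on the other strand at 45 bases before it, and the Cd163 window held neither. A match is a description of the letters and not of binding. Cd209f and Cd209g shared an unbroken run of 154 bases, which ended 1 base before the start of Cd209f and 15 bases before that of Cd209g. In a global alignment 78.1% of positions of this pair were identical, against 41% to 48.7% for the other 14 pairs among the 6 genes. Whether the probe set of either gene also binds transcripts of the other was not tested.

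The separation on Prom1 divided these genes in opposite ways in different tissues. In uterus the Prom1-positive cells held the higher level of every one of the 10 genes, with no overlap between the groups, as was so for 16.1% of all genes (15.1% were lower). The differences were 1.77 to 5.56. In prostate 9 of the 10 differences were above 0, where the median over all genes was 0.10. In liver 9 of 10 were below 0, where that median was -0.12, and Cd209g (-0.19) and Fcrls (-0.21) lay close to it. Kupffer cell genes such as Vsig4, Timd4 and Cd163 were lower in the Prom1-positive liver cells. No gene of the 10 was without overlap in prostate (15.7% of all genes were higher and 9.08% lower in this way), and 2, Vsig4 and Cd163, were lower without overlap in liver (6.89%, with 1.29% higher). In stomach and intestine the genes were dim in both groups, with group means of at most 5.27. In bulk samples such as these, fewer cells of a type and less RNA per cell cannot be told apart.

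Counted by limma with adjustment over 14081 genes, 8 of 9 genes tested were higher in Prom1-positive cells of uterus, where 5.31% of all genes were and 5.64% were lower. In prostate 5 of 9 were higher, against 3.21% of all genes (5.98% were lower), and in liver 5 of 9 were lower, against 16.5% (4.2% were higher). None was called in stomach or intestine, where 2.29% and 0% of all genes were called higher and 0.888% and 0.199% lower. At an unadjusted p under 0.05 no gene of the 9 passed in either of these tissues. The median difference over the 10 genes was 4.77 in uterus (0.03 over all genes), 2.66 in prostate (0.10), -2.04 in liver (-0.12), 0.54 in stomach (0.13) and 0.27 in intestine (0.0029). The difference varied over these 5 tissues for 9 of 9 genes, where 23% of all genes passed. Its adjusted p ran from 6.49e-06 for Folr2 to 0.0402 for Lyve1, whose call was lost in 4 of the alternatives.

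**Figure D1:**
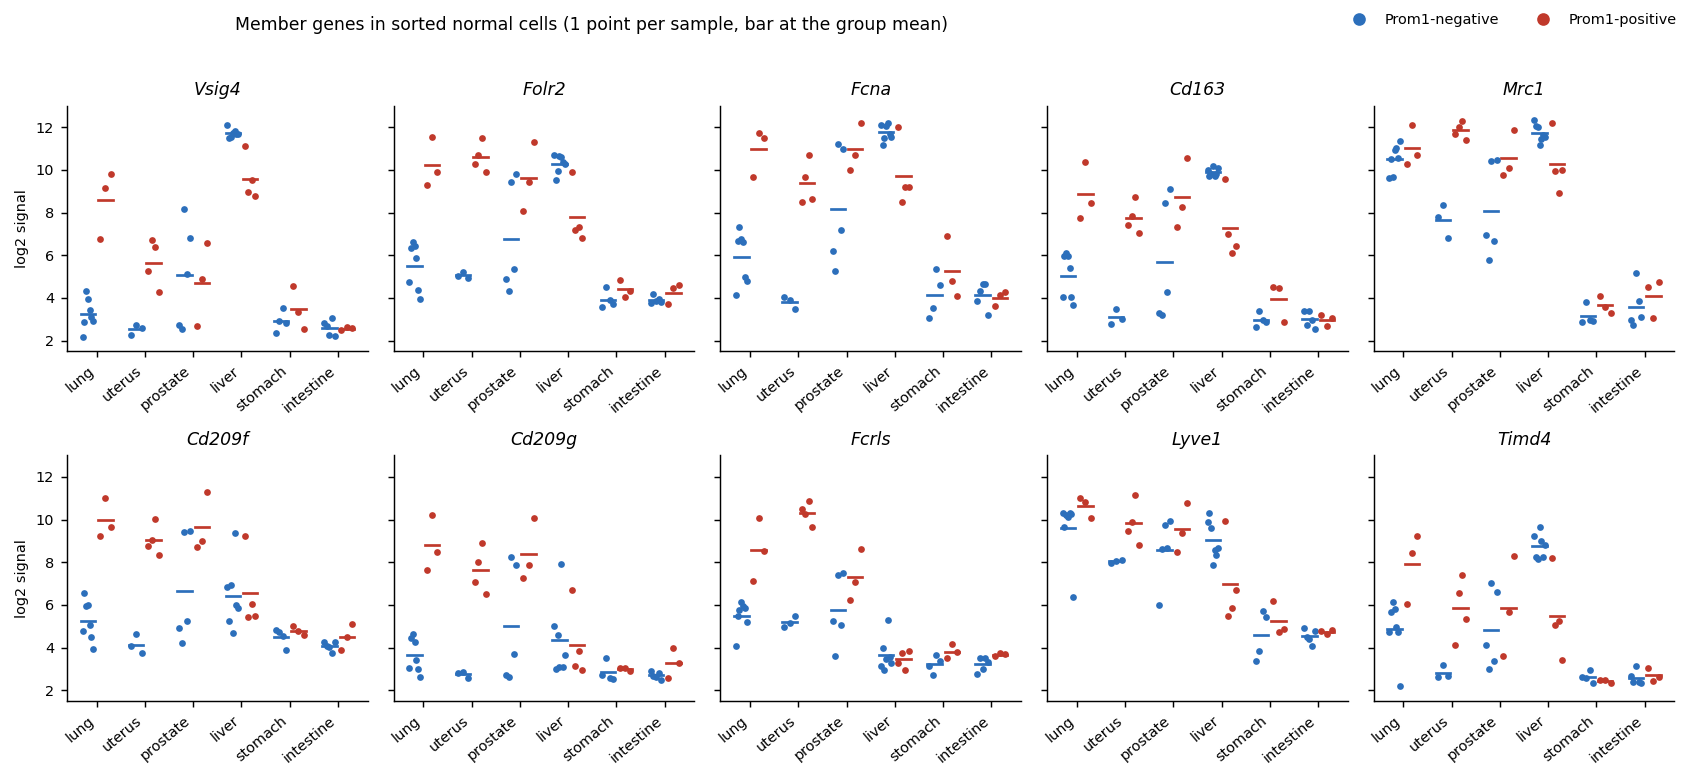
Log2 signal (y axis) of the 10 genes in sorted normal cells of 6 tissues (x axis), with 1 point per sample, blue for Prom1-negative and red for Prom1-positive cells, and a bar at the group mean. Red points lie above blue points for every gene in uterus, blue points lie at or above most red points for Vsig4, Folr2, Fcna, Cd163 and Timd4 in liver, and stomach and intestine lie low in both.

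Vsig4 encodes CRIg, a complement receptor by which Kupffer cells capture opsonised particles from the blood. Its level was highest in Prom1-negative liver cells, at 11.51 to 12.12 with a median of 11.68 in 7 samples, and this group stood above the next in the order by more than the spread. Prom1-positive liver cells held 11.10, 8.96, 9.54 and 8.75 in samples 2, 3, 4 and 5. Every positive liver sample was thus below every negative one. The difference was -2.14 (SE 0.68, adjusted p = 0.0211), and the call did not hold when positive sample 3, 4 or 5 was left out (highest adjusted p = 0.0972).

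In uterus Vsig4 was at 2.29, 2.72 and 2.58 in the negative samples, under the array median, and at 5.26, 6.70, 6.39 and 4.27 in the positive ones. It was higher in positive cells by 3.12 (SE 0.83, adjusted p = 0.00842). Without negative sample 1 the adjusted p was 0.0501. In prostate Vsig4 was the 1 gene of the 10 with a difference below 0: it was at 2.73, 2.55, 8.17, 5.10 and 6.82 in negative samples 1 to 5 and at 2.70, 4.87 and 6.55 in positive samples 1 to 3. The 2 groups overlapped, with a difference of -0.36 (95% interval -1.97 to 1.24, adjusted p = 0.88).

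Timd4 encodes TIM-4, a phosphatidylserine receptor through which macrophages take up dying cells. Among sorted cells it too was highest in Prom1-negative liver cells, at 8.17 to 9.66 with a median of 8.81. Positive liver cells held 8.21 in sample 2 and 5.07, 5.23 and 3.43 in samples 3, 4 and 5. Sample 2 reached into the negative range and the other 3 lay well below it. Timd4 fell by 3.28 in positive liver cells (SE 0.75, 9.71-fold, adjusted p = 0.00127), and this call was kept when any single sample was left out.

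In uterus Timd4 was at 2.64, 3.20 and 2.66 in negative and at 4.12, 6.54, 7.42 and 5.32 in positive samples. The groups did not overlap, and the difference of 3.02 (SE 0.91) had an adjusted p of 0.0230. This call was lost without any of the 3 negative samples or positive samples 2 or 3 (highest adjusted p = 0.104). In prostate the values were 4.11, 3.0, 7.03, 3.39 and 6.6 in negative and 3.61, 5.67 and 8.29 in positive samples, with a difference of 1.03 (95% interval -0.73 to 2.80, adjusted p = 0.573).

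Cd163, the scavenger receptor for haemoglobin bound to haptoglobin, lay within 9.72 and 10.18 in the 7 negative liver samples (median 9.83). Positive liver cells held 9.56, 6.97, 6.10 and 6.43 in samples 2, 3, 4 and 5. Again sample 2 was close to the negative cells, though below all of them. The difference was -2.64 (SE 0.75, adjusted p = 0.00892), and it was lost without positive sample 4 or 5 (highest adjusted p = 0.0625). Without positive sample 2 it was -3.40.

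In uterus Cd163 was at 2.76, 3.48 and 3.04 in negative and 7.42, 7.82, 8.74 and 7.02 in positive samples. The gap between the groups was wider than the range of either, and the difference was 4.66 (SE 0.91, adjusted p = 0.000315). In prostate it was at 3.31, 3.23, 8.47, 4.26 and 9.10 in negative and at 7.32, 8.26 and 10.54 in positive samples. Negative samples 3 and 5 reached the positive range and samples 1, 2 and 4 did not, a division that also held for Folr2, Mrc1, Fcna, Cd209f, Cd209g and Fcrls and not for Vsig4, Timd4 and Lyve1. The difference in prostate was 3.04 (SE 0.87, adjusted p = 0.0185).

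Folr2 encodes folate receptor beta, which macrophages around vessels carry. It was highest in Prom1-positive uterine cells, at 10.26, 10.69, 11.51 and 9.92, against 5.03, 5.23 and 4.93 in negative uterine cells. This difference of 5.52 (SE 0.85, 46-fold, adjusted p = 7.36e-06) was kept when any single sample was left out. In prostate Folr2 was at 4.90, 4.33, 9.41, 5.36 and 9.83 in negative and at 8.06, 9.43 and 11.31 in positive samples, higher by 2.83 (SE 0.81, adjusted p = 0.0182) with overlapping ranges.

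In liver the direction was the other one. Negative cells held 9.54 to 10.67 of Folr2 (median 10.36), and positive samples 2, 3, 4 and 5 held 9.89, 7.19, 7.34 and 6.82. Sample 2 lay inside the negative range and the other 3 below it. Folr2 fell by 2.48 in positive cells (SE 0.70, adjusted p = 0.0083), a call lost without positive sample 5 (adjusted p = 0.0551).

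Mrc1, the mannose receptor CD206, was well above the array median in negative uterine cells too. It was at 7.79, 8.35 and 6.81 in these and at 11.70, 12.01, 12.27 and 11.41 in positive uterine cells. The difference was 4.2 (SE 0.75, adjusted p = 9.33e-05). In prostate Mrc1 was at 6.97, 5.78, 10.43, 6.67 and 10.48 in negative and at 9.76, 10.11 and 11.86 in positive samples, higher by 2.51 (SE 0.72, adjusted p = 0.0187).

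In liver Mrc1 was at 11.18 to 12.35 in negative samples (median 11.63) and at 12.20, 9.94, 8.91 and 10.003 in positive samples 2, 3, 4 and 5. The ranges overlapped through sample 2, and the difference of -1.48 was not called (SE 0.62, adjusted p = 0.0848). Without the arrays with an upper quartile under 6, which include this sample, it was -2.29 (adjusted p = 0.0230).

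Lyve1 encodes a hyaluronan receptor that is shared with lymphatic and sinusoidal endothelium. It was above the array median in every uterine sample, at 7.99, 8.07 and 8.13 in negative and 9.46, 9.88, 11.14 and 8.82 in positive cells. Although the groups did not overlap, the difference of 1.77 (SE 0.83, 95% interval 0.09 to 3.44) was not called in the fit of all tissues (adjusted p = 0.204). It was called with uterus fitted alone (adjusted p = 0.0212). In prostate the difference was 0.95 (95% interval -0.65 to 2.56, adjusted p = 0.567).

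In liver Lyve1 was at 7.85 to 10.30 in negative cells (median 8.69) and at 9.92, 5.47, 5.84 and 6.69 in positive samples 2, 3, 4 and 5. All positive samples but the first of these lay under the negative range. The difference was -2.06 (SE 0.68, adjusted p = 0.0261). This call was lost without negative sample 1 or 2 or positive sample 3, 4 or 5 (highest adjusted p = 0.188), after repeated quantile normalisation, when the upper quartile was a covariate and with liver fitted alone (highest adjusted p = 0.0766).

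Fcna encodes ficolin A, which is not a receptor but a secreted lectin of the complement system made by macrophages. In uterus it went from 4.06, 3.89 and 3.47 in negative cells, near the array median, to 8.50, 9.66, 10.68 and 8.63 in positive cells. It rose by 5.56 (SE 0.94, adjusted p = 3.62e-05). In prostate Fcna was at 6.19, 5.27, 11.21, 7.19 and 10.97 in negative and at 10.004, 10.70 and 12.20 in positive samples, higher by 2.80 (SE 0.90, adjusted p = 0.0387). In liver it was at 11.18 to 12.21 in negative samples (median 11.66) and at 11.998, 8.51, 9.20 and 9.20 in positive samples 2, 3, 4 and 5. The liver difference of -2.02 was not called (SE 0.77, adjusted p = 0.0554). It was called without the 4 samples with markers of another organ (adjusted p = 0.0364), none of which is a sorted liver sample. The call also appeared without the arrays with an upper quartile under 6 (0.0379) and with liver fitted alone (0.0233). It appeared as well with arrays centred on their medians (0.0496) and with neighbouring sample codes as blocks (0.00826), and not in the remaining alternatives.

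Cd209f and Cd209g encode C-type lectins of the family of DC-SIGN, which bind sugars of microbes. In uterus Cd209g was at 2.80, 2.85 and 2.59 in negative cells, under the array median, and at 7.09, 8.03, 8.88 and 6.51 in positive cells. The difference was 4.89 (SE 1.01, adjusted p = 0.000607) and kept without any single sample. In prostate Cd209g was at 2.73, 2.63, 8.22, 3.7 and 7.86 in negative and at 7.27, 7.86 and 10.05 in positive samples. It was higher by 3.37 (SE 0.97, adjusted p = 0.0184).

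Liver differed from these tissues, since Cd209g was low in both groups apart from single samples. It was at 2.99 to 7.93 in negative samples (median 3.65), with negative sample 5 at the top, and at 6.68, 3.12, 3.83 and 2.95 in positive samples 2, 3, 4 and 5. The difference was -0.19 (95% interval -1.87 to 1.48, adjusted p = 0.922).

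Cd209f moved with Cd209g and is described without a test. In uterus it was at 4.06, 4.62 and 3.75 in negative and at 8.74, 9.04, 10.05 and 8.35 in positive cells, a difference of 4.90. In prostate it was at 4.94, 4.22, 9.40, 5.26 and 9.46 in negative and 8.70, 8.99 and 11.30 in positive samples, a difference of 3.01. In liver it was at 4.67 to 9.38 in negative cells (median 6.00) and at 9.25, 5.44, 6.05 and 5.49 in positive ones. The highest liver samples were the same for both lectins, negative sample 5 and positive sample 2.

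Fcrls encodes an Fc receptor-like scavenger receptor best known from microglia. Its pattern stood apart from that of Vsig4: it was highest in Prom1-positive uterine cells, above the next group by more than the spread, and near the array median in liver. In uterus it was at 4.95, 5.17 and 5.49 in negative and at 10.48, 10.28, 10.87 and 9.67 in positive cells. It rose by 5.12 (SE 0.62, 34.8-fold, adjusted p = 7.47e-08), a call kept when any single sample was left out.

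In liver Fcrls was at 2.98 to 5.30 in negative samples (median 3.45) and at 3.27, 3.74, 2.97 and 3.86 in positive ones, with a difference of -0.21 (95% interval -1.23 to 0.81, adjusted p = 0.841). In prostate it was at 5.25, 3.59, 7.38, 5.07 and 7.51 in negative and at 6.24, 7.07 and 8.61 in positive samples. The prostate difference of 1.55 was not called (SE 0.59, adjusted p = 0.0986). It was called, at 1.95, without negative sample 3, the sample with lung markers (adjusted p = 0.0300), and with neighbouring sample codes as blocks (adjusted p = 0.0116).

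**Figure D2:**
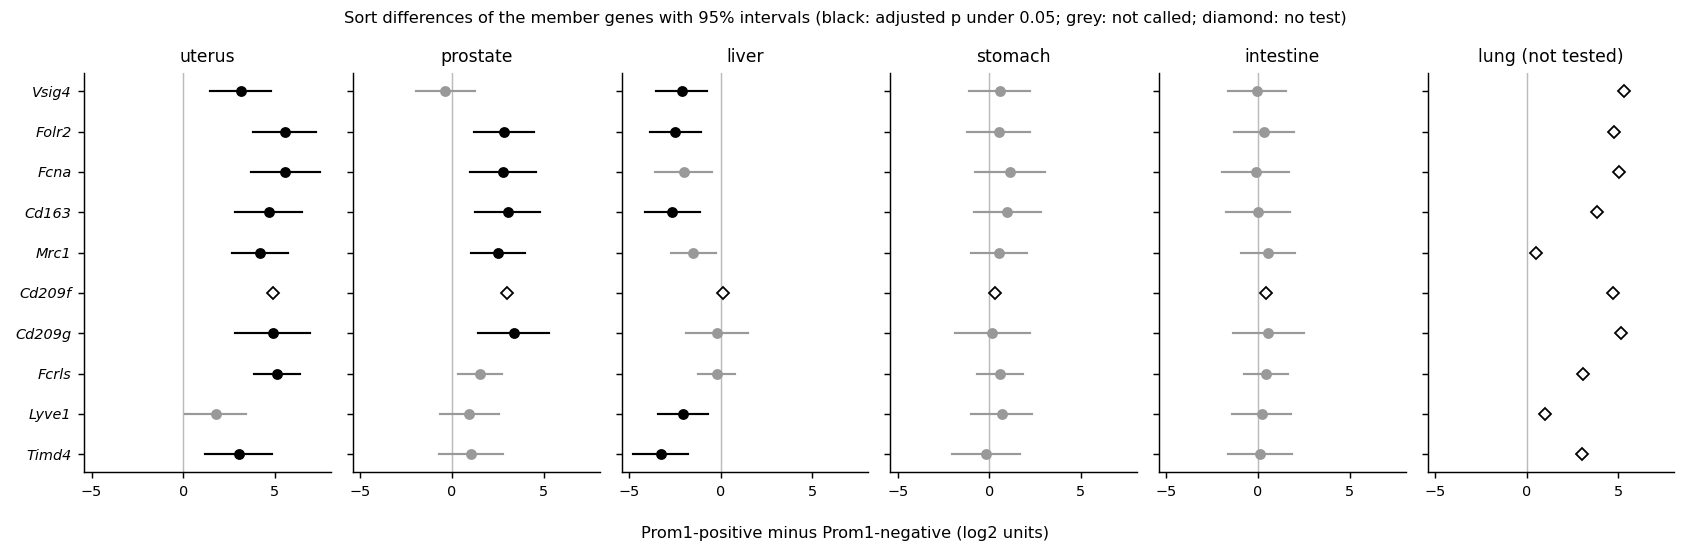
Difference in log2 signal between Prom1-positive and Prom1-negative cells (x axis) for the 10 genes (y axis) in each of 6 tissues, with 95% intervals from limma. Black marks an adjusted p under 0.05, grey a difference that was not called and a diamond a difference that was not tested. Black points lie right of 0 in uterus and prostate and left of 0 in liver.

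The prostate calls rested on few samples. Negative samples 3 and 5 were as high as positive samples for Folr2, Fcna, Cd163, Mrc1, Cd209f and Cd209g, and in sample 3 markers of lung were bright. All 5 calls were lost with prostate fitted alone (adjusted p = 0.141 to 0.195), and each was lost when 1 of 3 to 5 single samples was left out, among them negative samples 2 and 4 and positive sample 3 for every gene (highest adjusted p = 0.178 to 0.227). Without negative sample 3 the 5 differences were larger, at 3.73 for Cd163, 4.17 for Cd209g, 3.56 for Fcna, 3.49 for Folr2 and 3.10 for Mrc1.

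In lung, which was part of the choice of the genes, the differences ran from 0.50 to 5.31 with a median of 4.26 (-0.01 over all genes). Positive lung samples 1, 2 and 4 held 6.75, 9.13 and 9.82 of Vsig4, against 2.19 to 4.33 (median 3.11) in 7 negative samples. They held 9.29, 11.52 and 9.89 of Folr2 against 3.94 to 6.61 (median 5.88). For 7 genes the groups did not overlap, where 2.02% of all genes were higher and 2.40% lower without overlap, and by the fit 0.391% of all genes were higher and 1.11% lower. These shares support nothing here, since lung was used in the choice. The same holds for the average over the 6 tissues, which was above 0 for all 10 genes (0.42 to 2.32, median 1.70) where 5.05% of all genes were called higher and 8.56% lower. Lyve1 and Mrc1 were bright in both groups: Mrc1 was at 10.28, 12.11 and 10.70 in positive and at 9.63 to 11.35 in negative cells, and Lyve1 at 10.98, 10.80 and 10.06 against 6.38 to 10.31. Timd4 was at 6.07, 8.43 and 9.21 in positive and at 2.19 to 6.13 in negative cells, and its ranges overlapped narrowly.

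In stomach and intestine the group means of the 10 genes ran from 2.45 to 5.27. Differences lay between -0.18 and 1.13 in stomach (adjusted p = 0.605 to 0.968) and between -0.13 and 0.57 in intestine (adjusted p = 1). The 95% interval of Fcna in stomach was -0.77 to 3.02, which leaves room for an increase but not for one of the size seen in uterus. In positive stomach sample 1 Fcna was at 6.91 and in samples 2 and 3 at 4.78 and 4.10. Only Fcrls in intestine was higher in the positive cells without overlap (2.51% of all genes were higher and 3.63% lower in this way), and no gene of the 10 was without overlap in stomach (5.23% and 1.75%). Of the 10 genes 6 were under the array median in every negative stomach sample, and 5 were so in every negative intestine sample.

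Other macrophage genes were set beside these 10. Of 15 genes shared by most macrophages, 12 were higher in Prom1-positive uterine cells (median 3.60), led by Csf1r, the receptor of the macrophage growth factor, Cx3cr1 and the complement gene C1qc, and none was lower. In liver 12 of the 15 were lower in positive cells (median -2.44), led by Fcgr1, Cd14 and Aif1. In prostate 1 was higher, Csf1r (median 0.90). The mean level of the 15 genes was 10.71 ± 0.14 (SD, n = 4) in positive and 7.64 ± 0.39 (SD, n = 3) in negative uterine cells. It was 7.29 ± 1.17 (SD, n = 4) in positive and 9.49 ± 0.33 (SD, n = 7) in negative liver cells, and 8.43 ± 1.01 (SD, n = 3) and 7.56 ± 1.25 (SD, n = 5) in prostate. It was lowest in stomach, at 4.90 in positive and 3.98 in negative cells.

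Among 19 further genes of resident macrophages, 9 were higher in positive uterine cells (median 1.67), led by the chemokine Pf4, the transglutaminase F13a1 and the lectin Clec10a, and the factor Id3 was lower. In liver 6 of the 19 were lower (median -1.39), led by the Kupffer cell lectin Clec4f, the factor Spic and haem oxygenase Hmox1. In prostate none was higher and Nr1h3 was lower (median 0.51). Of 4 other Cd209 genes, Cd209d and Cd209b were higher in positive prostate cells, none was called in uterus, and Cd209a was lower in liver.

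Genes of other cell types moved in the same comparisons. In uterus 5 of 9 genes of T and NK cells had lower levels in the positive cells (median -2.05), and their mean level was 3.21 to 3.38 in positive and 5.21 to 5.52 in negative samples. In uterus 3 of 5 lymphatic endothelial genes (median -1.89) and 4 of 7 fibroblast genes (median -1.62) were lower too. In prostate 6 of 9 T and NK cell genes, 3 of 5 lymphatic genes and 4 of 8 blood endothelial genes were lower, against the direction of the receptors. In liver 7 of 9 T and NK cell genes (mean level 3.52 to 3.62 in positive and 6.21 to 8.45 in negative samples), 6 of 7 neutrophil genes, 4 of 6 B cell genes and 6 of 8 blood endothelial genes fell together with the receptors. Their part in the results was not tested.

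Liver sinusoidal endothelium carries Lyve1 and Mrc1, and 5 of its 6 other genes were lower in positive liver cells (median -1.51, mean level 8.06 to 12.07 against 10.87 to 11.90). Positive sample 2, the one that stayed high for Folr2, Fcna, Mrc1, Lyve1 and Timd4, was 1 of the 2 positive liver arrays with an upper quartile under 6. Its median correlation with the samples of its group was 0.85, against 0.97 for each of samples 3, 4 and 5. The log2 ratio of the 3′ to the 5′ control probe set of Gapdh, which rises as RNA breaks down, was 1.14 ± 0.04 (SD, n = 4) in positive and 0.60 ± 0.21 (SD, n = 7) in negative liver cells. It was 1.0 ± 0.05 (SD, n = 3) against 0.64 ± 0.14 (SD, n = 5) in prostate, and 0.68 ± 0.22 (SD, n = 4) against 1.05 ± 0.65 (SD, n = 3) in uterus. Its part in the results was not tested.

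The 18 sort differences called kept their sign under each scaling tried. Over all genes, 20.3% of the liver calls were higher in positive cells, which became 48.5% after repeated quantile normalisation and 39.5% when the upper quartile was a covariate, while the difference of the median gene went from -0.12 to 0.06 and -0.01. In prostate the share was 34.9% and became 45.7% and 51.5%. In stomach it was 72% and became 60.2% after repeated quantile normalisation and 80.9% with the covariate. After the quantile step in stomach the difference of the median gene went from 0.13 to 0.01.

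The 7 tumour types differed in which of the receptors they held. Hepatocellular carcinomas were high in Vsig4, B-cell lymphomas in Timd4, uterine adenocarcinomas in Fcrls, bronchial papillary adenomas in Mrc1 and Lyve1, and prostatic and gastric adenocarcinomas in Cd163. Squamous carcinomas of the skin were low in Fcna and Mrc1. In a limma F test over the 7 types 9 of the 10 genes differed, from Timd4 (adjusted p = 3.59e-08) to Cd209f (adjusted p = 0.0104), while Cd209g did not pass (adjusted p = 0.0593). Of all 13456 genes 95.1% passed, so this count says little about the receptors. Of 70 comparisons of a gene in 1 type with the mean of the other 6 types, 12 were higher and 12 lower. Per type, 17.3% to 25% of all genes were higher and 12.5% to 41.3% lower, so these counts too say little about the receptors.

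**Figure D3:**
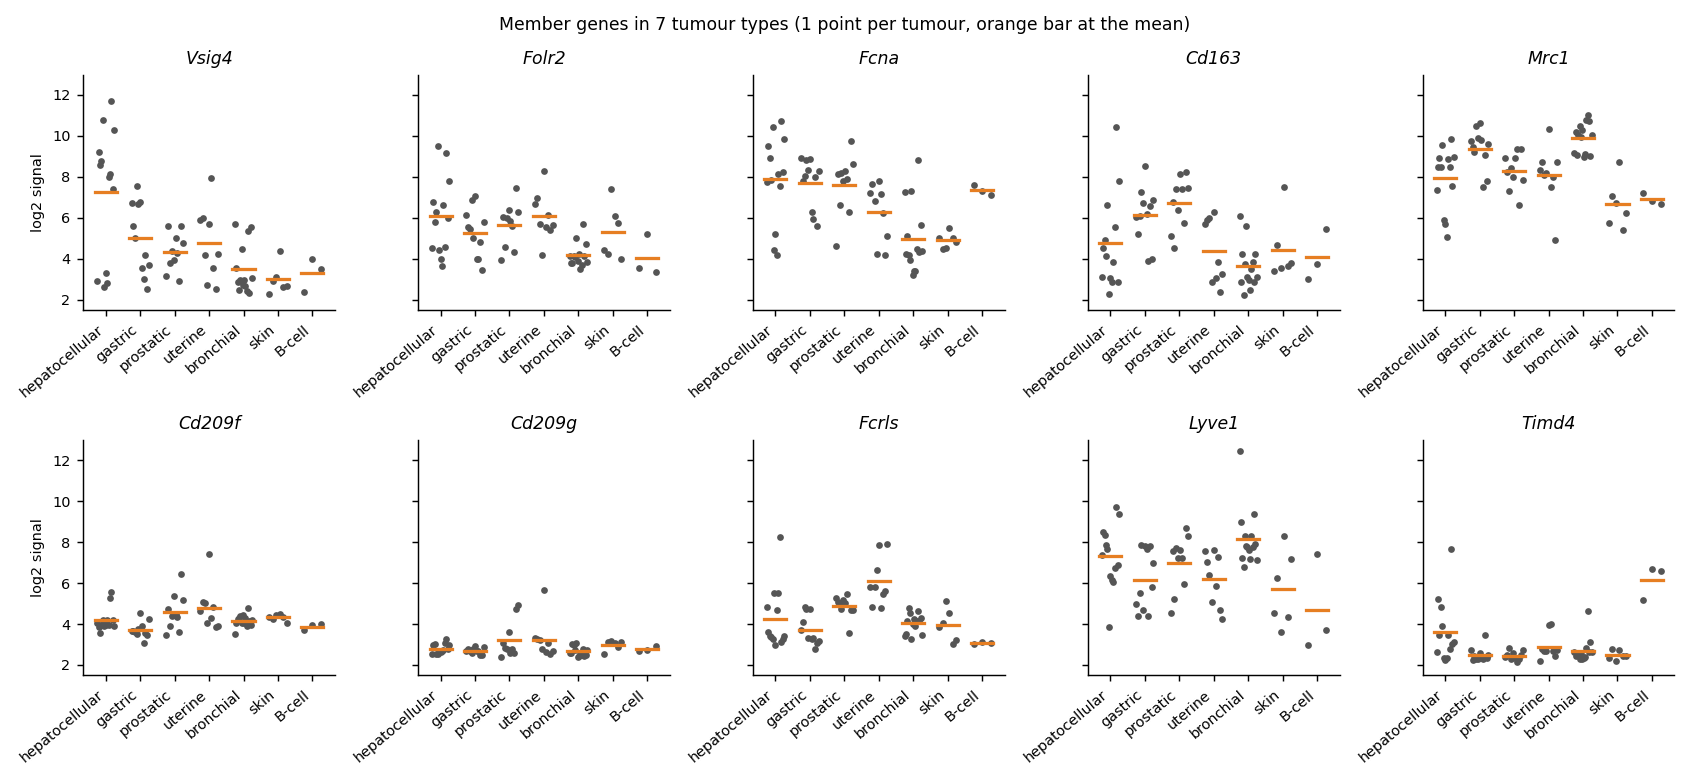
Log2 signal (y axis) of the 10 genes in 66 tumours of 7 types (x axis), with 1 point per tumour and an orange bar at the mean. Hepatocellular carcinomas fall into 9 samples above 7 and 4 below 3.5 for Vsig4, and the 3 B-cell lymphomas lie above most other tumours for Timd4.

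In hepatocellular carcinoma 3 of 10 genes were higher than in the other types, where 25% of all genes were, and none was lower, where 41.3% were. Vsig4 ran from 2.62 to 11.69 with a median of 8.14. Its samples fell apart: carcinomas 1, 6, 7 and 8 were at 2.92, 2.62, 3.28 and 2.82, and the other 9 were at 7.39 or above. The difference from the other types was 3.29 (SE 0.59, adjusted p = 2.10e-06), and 4.15 without the 4 samples with markers of another organ, among which are carcinomas 1 and 8.

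Carcinomas 6, 7 and 8 were also the lowest of this type for Fcna, at 4.43, 5.18 and 4.18 in a range up to 10.75 (median 8.14), and for Mrc1, at 5.87, 5.67 and 5.08. Fcna was higher than in the other types by 1.44 (SE 0.48, adjusted p = 0.00753), and Folr2, at 3.67 to 9.51 (median 5.97), by 1.0 (SE 0.39, adjusted p = 0.0213). Both calls were lost when the upper quartile was a covariate (adjusted p = 0.102 and 0.156), and that of Folr2 also without any of carcinomas 5, 11 or 13 (highest adjusted p = 0.0908). Carcinoma 11 held the highest Vsig4, Fcna, Cd163 (10.42) and Timd4 (7.67) of its type. Timd4 as a whole was at 2.24 to 7.67 (median 3.11), with a difference of 0.42 (adjusted p = 0.142), which became 0.65 (adjusted p = 0.0274) without the 4 samples.

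In B-cell lymphoma Timd4 was at 5.18, 6.70 and 6.58. Among the other 63 tumours hepatocellular carcinomas 2 and 11 (5.25 and 7.67) reached this range and no other did. It was higher than in the other types by 3.38 (SE 0.47, adjusted p = 1.93e-08), the 1 gene of 10 that was higher, where 24.3% of all genes were. Fcrls was at 3.0, 3.12 and 3.07, lower by a difference of -1.42 (SE 0.55, adjusted p = 0.0275), and Lyve1 was at 2.98, 7.43 and 3.7 with a difference of -2.05 (SE 0.88, adjusted p = 0.0481). Among all genes 22.3% were lower. The call of Fcrls was lost without any 1 of the 3 lymphomas (highest adjusted p = 0.1), and that of Lyve1 without any of 30 single samples (highest adjusted p = 0.402) and in 5 of 7 alternatives. The mean level of 6 B cell genes was 8.43 ± 0.29 (SD, n = 3) in the lymphomas and that of the 15 macrophage genes 9.35 ± 0.23. Their part in the level of Timd4 was not tested.

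In uterine adenocarcinoma Fcrls was at 4.78 to 7.91 (median 5.82), with tumours 5 and 9 highest at 7.87 and 7.91. It was higher than in the other types by 2.10 (SE 0.34, adjusted p = 2.08e-06), and this call was kept when any single tumour was left out. Cd209f was at 3.84 to 7.43 (median 4.65), and tumour 5 was again the highest. Its difference of 0.64 (SE 0.23, adjusted p = 0.0273) was lost without tumour 2, 3 or 5 and was 0.31 at the lowest. With these genes 2 of 10 were higher, where 17.3% of all genes were, and none was lower, where 12.5% were. Over all genes 58.1% of the calls of this type were higher, and 44.6% after repeated quantile normalisation, under which Cd209f was not called.

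In bronchial papillary adenoma Mrc1 lay at 8.97 to 11.03 (median 10.03) and Lyve1 at 6.77 to 12.45 (median 7.79), with adenoma 1 at the top for Lyve1. Both were above the array median in every adenoma. Mrc1 was higher than in the other types by 2.04 (SE 0.34, adjusted p = 7.62e-07) and Lyve1 by 2.0 (SE 0.46, adjusted p = 0.000161), 2 of 10 genes where 23.9% of all genes were higher. Fcna (-1.98, SE 0.47), Cd163 (-1.45, SE 0.48), Folr2 (-1.22, SE 0.38) and Timd4 (-0.65, SE 0.25) were lower (adjusted p = 0.000268 to 0.0212), 4 of 10 where 34.1% were. Fcna was at 3.20 to 8.82 in adenomas (median 4.34). Timd4 was above the array median in 1 of 14 adenomas, so most of its levels there can be background.

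In gastric adenocarcinoma Mrc1 was at 7.48 to 10.61 (median 9.60) and Cd163 at 3.90 to 8.51 (median 6.19). Mrc1 was higher than in the other types by 1.41 (SE 0.37, adjusted p = 0.00149), Cd163 by 1.47 (SE 0.53, adjusted p = 0.0185) and Fcna by 1.21 (SE 0.52, adjusted p = 0.0473), 3 of 10 genes where 23.8% were. The call of Fcna was lost without any of 31 single tumours (highest adjusted p = 0.0907) and that of Cd163 without gastric tumour 6 (adjusted p = 0.0575). Timd4 (-0.88) and Cd209f (-0.59) were lower (adjusted p = 0.00555 and 0.0174), where 24.1% of all genes were. Timd4 was under the array median in every gastric tumour, at 2.26 to 3.45, a level that can be background. Cd209f was near the array median, at 3.06 to 4.56.

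In prostatic adenocarcinoma Cd163 was at 4.50 to 8.22 (median 7.09) and higher than in the other types by 2.15 (SE 0.55, adjusted p = 0.00111), and Timd4 was lower (-0.94, SE 0.28, adjusted p = 0.00554). Among all genes 22.1% were higher and 19.6% lower. Timd4 was under the array median in all 10 prostatic tumours, a level that can be background. The mean of the other 6 types was 3.39 for Timd4, with B-cell lymphomas at a mean of 6.15 among them. In skin carcinomas Fcna, at 4.46 to 5.51 (median 4.90), was lower by a difference of -2.08 (SE 0.66, adjusted p = 0.00867), Mrc1, at 5.42 to 8.74 (median 6.47), by -1.77 (SE 0.48, adjusted p = 0.00214), and Timd4 by -0.91 (SE 0.35, adjusted p = 0.0302). These were 3 of 10 genes, where 22.5% of all genes were lower and 19.2% higher. The call of Timd4 in skin was lost without tumour 1, 3, 5 or 6 (highest adjusted p = 0.0659), and Timd4 was under the array median in every skin carcinoma. Without the 4 samples with markers of another organ, Vsig4 was also called lower in skin (-1.77, adjusted p = 0.0381) and in bronchial adenoma (-1.18, adjusted p = 0.0416), and Mrc1 in B-cell lymphoma (-1.54, adjusted p = 0.0378).

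Tumours were then set against the mean of both sorted groups of their organ, tested in 4 organs with limma over 14663 genes. In liver and prostate the tumours held less of most of the receptors than this mean, and in stomach they held more of 4. Against Prom1-negative prostate cells alone, Folr2, Lyve1, Fcna and Fcrls were no longer called. In uterus 7 genes were lower than this mean, but 6 of these differences turned above 0 against Prom1-negative cells alone. Of 40 comparisons 22 were lower and 4 higher. Per organ, 12.4% to 23% of all genes were lower and 16.4% to 35.0% higher. Against Prom1-negative cells alone 12 comparisons were lower. No share of all genes is given for that reference, so this count alone says little about the receptors. For Cd209f the sorted cells of this reference entered the average used in its choice. Its p-values and calls in these comparisons are therefore only descriptions. The reference cells were dissociated and sorted while tumours were frozen whole, so tumour state and handling cannot be told apart.

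**Figure D4:**
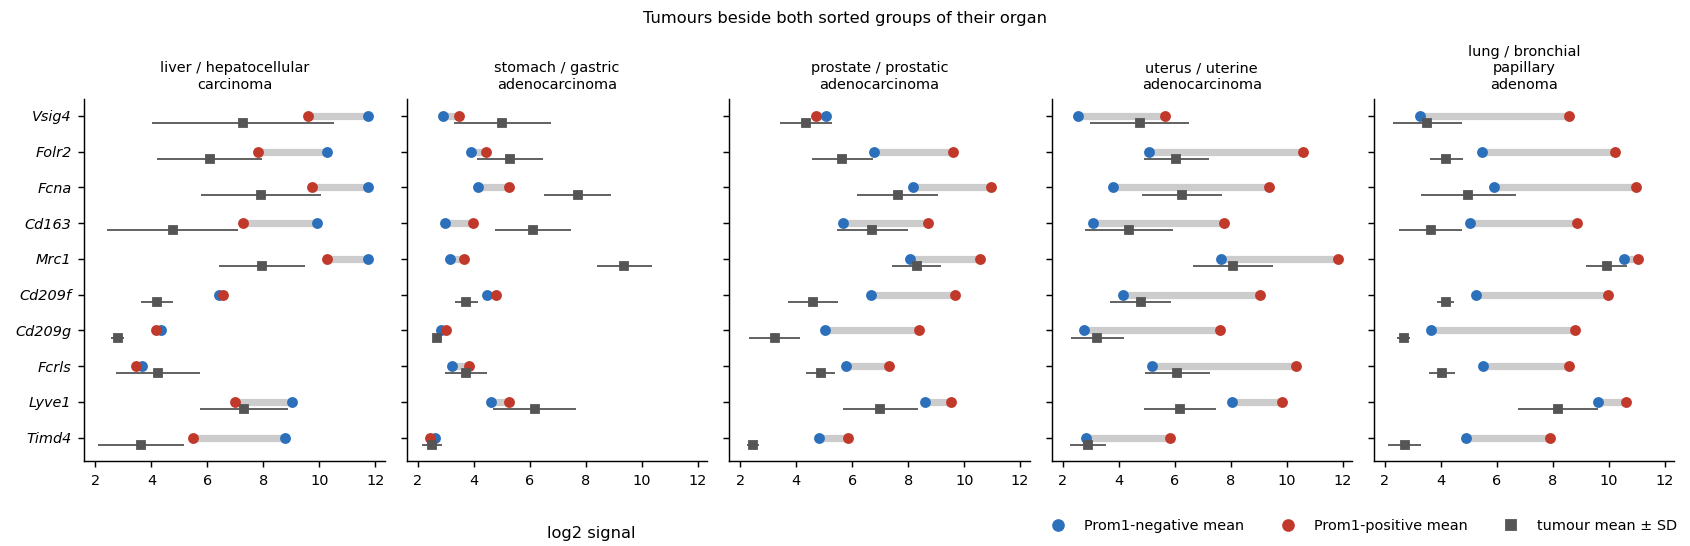
Mean log2 signal (x axis) of the 10 genes (y axis) in Prom1-negative (blue) and Prom1-positive (red) cells of 5 organs, joined by a grey bar, and in tumours of the organ (grey square, mean with SD). Most squares lie left of the midpoint of the bar in liver, prostate, uterus and lung, and the square of Mrc1 lies far right of it in stomach.

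In hepatocellular carcinoma 8 of 10 genes were lower than in sorted liver cells, where 18.0% of all genes were, and none was higher, where 29.2% were. Cd163 was at 2.29 to 10.42 in carcinomas (median 4.14), a difference of -3.82 (SE 0.60, adjusted p = 1.14e-07) from a mean of 8.59 in liver cells. Timd4 differed by -3.51, Vsig4 by -3.39, Mrc1 by -3.06, Folr2 by -2.96, Fcna by -2.83, Cd209f by -2.29 and Cd209g by -1.44 (adjusted p = 1.81e-11 to 0.00174). Cd209g was under the array median in all 13 carcinomas. In liver cells Cd209g was above the array median in 3 of 7 negative and 2 of 4 positive samples. Lyve1 (-0.71, 95% interval -1.83 to 0.42) and Fcrls (0.68, 95% interval -0.06 to 1.42) were not called (adjusted p = 0.319 and 0.125), but against Prom1-negative liver cells alone Lyve1 was lower by a difference of -1.74 (adjusted p = 0.0219). The median was -2.90, against 0.07 over all genes.

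Against Prom1-positive liver cells alone Fcna was not called (-1.82, adjusted p = 0.0673), and Cd209g was not called without the arrays with an upper quartile under 6 (adjusted p = 0.0507). Of 15 macrophage genes 8 were lower and 3 higher in carcinomas (median -0.89), and 9 of 19 further resident macrophage genes were lower (median -1.02), led by Clec4f, Cd5l and Id3. The 6 sinusoidal endothelial genes were all lower (median -4.31), at a mean level of 6.52 ± 1.27 (SD, n = 13) against 11.31 ± 0.42 (SD, n = 7) in negative and 9.64 ± 1.71 (SD, n = 4) in positive liver cells. Their part in the result was not tested.

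In prostatic adenocarcinoma 7 of 10 genes were lower than in sorted prostate cells, where 15.8% of all genes were, and none was higher, where 20.9% were. Timd4 was at 2.14 to 2.83 (median 2.43) in carcinomas, below every sorted prostate sample, with a difference of -2.89 (SE 0.48, adjusted p = 6.37e-07). Cd209f (-3.57, SE 0.45) and Cd209g (-3.48, SE 0.46) had larger differences (adjusted p = 1.78e-10 and 8.35e-10), that of Cd209f only as a description. Folr2 (-2.53), Lyve1 (-2.07), Fcna (-1.94) and Fcrls (-1.67) were lower by less (adjusted p = 0.000233 to 0.0202). Mrc1 (-1.02), Vsig4 (-0.54) and Cd163 (-0.47, 95% interval -1.86 to 0.91) were not called (adjusted p = 0.115 to 0.640). Against Prom1-negative prostate cells alone, Folr2, Lyve1, Fcna and Fcrls were not called (adjusted p = 0.0869 to 0.656), and Fcna was not called without the 4 samples with markers of another organ. The call of Fcna was also lost without carcinoma 1, negative sample 3 or 5 or positive sample 3 (highest adjusted p = 0.0836). Against Prom1-positive prostate cells alone Mrc1 was called lower (-2.27, adjusted p = 0.0114). The median was -2.01, against 0.01 over all genes.

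In uterine adenocarcinoma 7 of 10 genes were lower than in sorted uterine cells, where 12.4% of all genes were, and none was higher, where 16.4% were. Lyve1 was at 4.24 to 7.64 (median 6.42), below every sorted uterine sample, with a difference of -2.75 (SE 0.69, adjusted p = 0.00099). Cd209g (-1.95), Cd209f (-1.81), Folr2 (-1.76), Fcrls (-1.68), Mrc1 (-1.66) and Timd4 (-1.44) were lower too (adjusted p = 0.000937 to 0.0224). These 6 differences turned above 0 against Prom1-negative uterine cells alone, at 0.06 for Timd4 to 1.0 for Folr2 (adjusted p = 0.321 to 0.967), and Lyve1 was not called there (-1.87, adjusted p = 0.133). The tumour mean lay between the means of both sorted groups for 9 of the 10 genes, and under both for Lyve1. The call of Folr2 was lost without tumour 4, that of Mrc1 without tumour 8 or negative sample 2 and that of Timd4 without negative sample 2 or positive sample 3 (highest adjusted p = 0.0528 to 0.0844). Cd163 (-1.06), Fcna (-0.32) and Vsig4 (0.66) were not called (adjusted p = 0.307 to 0.813). Against Prom1-positive cells alone Cd163 (-3.39, adjusted p = 0.00187) and Fcna (-3.10, adjusted p = 0.00436) were called lower. The median was -1.67, against 0.05 over all genes.

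In gastric adenocarcinoma 4 of 10 genes were higher than in sorted stomach cells, where 35.0% of all genes were (23% were lower), so that the share of the receptors was near that of all genes. Mrc1 was at 7.48 to 10.61 in every tumour and at 2.86 to 4.07 in every sorted stomach sample. The difference was 5.98 (SE 0.52, adjusted p = 4.76e-18), from a level near the array median in the sorted cells. Fcna (3.01, SE 0.70), Cd163 (2.66, SE 0.70) and Vsig4 (1.83, SE 0.79) were higher too (adjusted p = 0.000125 to 0.0391). The call of Vsig4 was lost without any of 10 single samples and in 4 of 11 alternatives, that of Fcna without the arrays with an upper quartile under 6 (adjusted p = 0.0624) and that of Cd163 against Prom1-positive cells alone (adjusted p = 0.0514).

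In the same comparison all 15 macrophage genes were higher in gastric tumours (median 2.44), led by the complement genes C1qb and C1qa and by Cd68, together with 10 of 19 further resident macrophage genes (median 1.37). Of 7 fibroblast genes 6 were higher (median 4.14), and 5 of 5 stomach epithelial genes were lower. Folr2, Lyve1, Fcrls, Timd4, Cd209f and Cd209g were not called (adjusted p = 0.0804 to 0.953), and the median over the 10 receptors was 1.17, against 0.11 over all genes. Of all genes called in this comparison 60.3% were higher, which became 47.4% after repeated quantile normalisation and 38.6% when the upper quartile was a covariate, while the median of all genes moved to -0.06 and -0.12. In liver this share was 61.9% and became 50.6% and 47.9%, and in prostate 56.9% became 42.9% with the covariate. The 26 receptor differences called kept their sign under these scalings.

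In lung, which was part of the choice of the genes, all 10 differences between bronchial adenomas and sorted lung cells were below 0, from -0.86 for Mrc1 to -3.69 for Timd4, with a median of -3.38. Of all genes 19.7% were called lower and 23.4% higher, and nothing is read from this count. Mrc1 was at 8.97 to 11.03 in adenomas against a mean of 10.78 in lung cells. Vsig4 was at 2.31 to 5.71 (median 2.95) in adenomas, which overlapped negative lung cells and was under every positive one.

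Across the 19 groups the genes were alike to different degrees. Pearson r over the group means was 0.99 for Cd209f and Cd209g, 0.96 for Fcna and Cd163, and 0.92 for Folr2 and Cd163, and it was lowest, at 0.17, for Vsig4 and Fcrls. Fcrls was low in liver, where Vsig4 and Timd4 were highest. Folr2 and Mrc1 were high in both places, at a mean of 10.59 and 11.85 in Prom1-positive uterine cells and of 10.29 and 11.74 in Prom1-negative liver cells. Groups of the same tissue and the common array platform make these 19 points dependent on one another. The lung cells used in the choice of the genes are among the 19 groups, so these r values are descriptions.

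**Figure D5:**
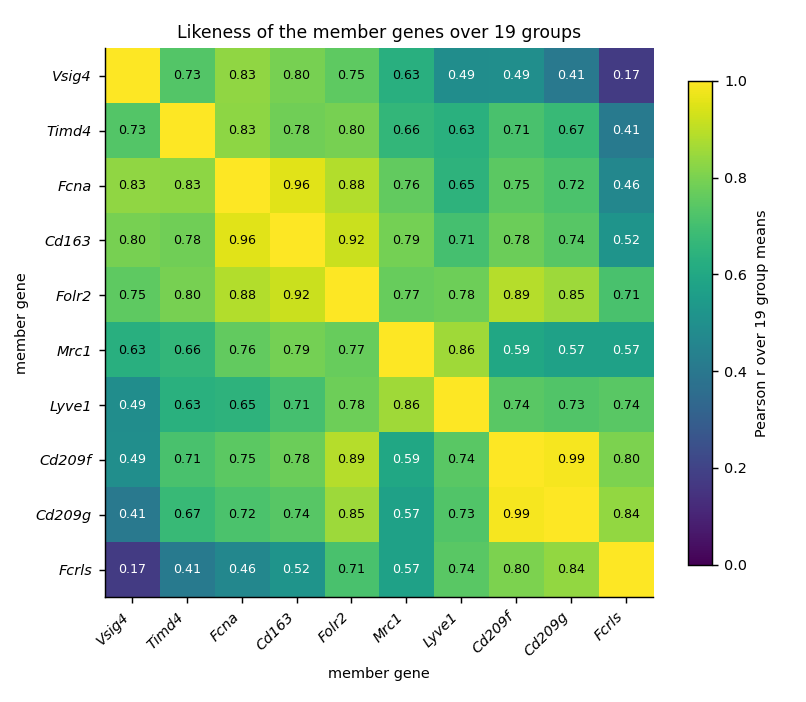
Pearson r over the mean log2 signals of 19 groups for each pair of the 10 genes (both axes), on a colour scale from 0 (dark) to 1 (yellow). The block of Fcna, Cd163 and Folr2 is bright, Cd209f and Cd209g reach 0.99, and Vsig4 with Fcrls is the darkest pair at 0.17.

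Of the 14663 genes in the fit of tumours and sorted cells, those most like each receptor over the 19 group means were the following. Lung is among these means too, so the list is a description. Closest to Vsig4 were Clec4g (r = 0.88), a lectin of sinusoidal endothelium, Fam167b (0.87) and Tpbgl (0.86), and to Timd4 the erythropoietin receptor Epor (0.93), Batf3 (0.90) and Bank1 (0.89). Closest to Folr2 was the scavenger receptor Stab1 (0.94), then Cd163 (0.92) and the chemokine Ccl24 (0.90). Fcna was most like Cd163 (0.96), Ninj1 (0.89) and Folr2 (0.88), and after Fcna and Folr2 Cd163 was most like Stab1 (0.90). Mrc1 was most like Dab2 (0.96), the coreceptor Nrp1 (0.92) and the macrophage receptor Adgre1 (0.92). After each other, Cd209f and Cd209g were most like Cd209d (0.94 and 0.95) and Fxyd2 (0.93 and 0.95). Fcrls was most like the macrophage lectins Mgl2 (0.90) and Clec10a (0.88) and the leukotriene receptor Cysltr1 (0.89), and Lyve1 was most like Ednrb (0.94), Abca9 (0.91) and Stard8 (0.91).

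The full order of the groups showed how little some neighbours differed. For Vsig4 the order began with Prom1-negative liver cells (11.72 ± 0.20, SD, n = 7), positive liver cells (9.59 ± 1.06, SD, n = 4), positive lung cells (8.57 ± 1.61, SD, n = 3) and hepatocellular carcinoma (7.27 ± 3.24, SD, n = 13). After the first step no neighbours differed by more than their spread. For Fcrls it began with positive cells of uterus (10.32 ± 0.50, SD, n = 4), lung (8.56 ± 1.48, SD, n = 3) and prostate (7.31 ± 1.21, SD, n = 3), followed by uterine adenocarcinoma (6.09 ± 1.16, SD, n = 9), and the first and the third of these steps were wider than the spread. For Timd4 Prom1-negative liver (8.76 ± 0.56, SD, n = 7) and positive lung cells (7.90 ± 1.64, SD, n = 3) stood above B-cell lymphoma (6.15 ± 0.85, SD, n = 3) by more than the spread.

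For Folr2 the positive cells of prostate (9.60 ± 1.63, SD, n = 3) stood above positive liver cells (7.81 ± 1.41, SD, n = 4) by more than the spread, as did negative uterine over positive stomach cells, and no step above them did. For Mrc1 the step from gastric (9.37 ± 0.98, SD, n = 11) to prostatic adenocarcinoma (8.30 ± 0.88, SD, n = 10) did so, as did that from skin carcinoma (6.65 ± 1.19, SD, n = 6) to positive intestine cells (4.11 ± 0.91, SD, n = 3). For Fcna it was the step from skin carcinoma (4.89 ± 0.38, SD, n = 6) to negative intestine cells (4.15 ± 0.61, SD, n = 5). For Cd163, Cd209f, Cd209g and Lyve1 no neighbours in the order differed by more than the larger of their SDs. Cd163 was highest in negative liver cells (9.91 ± 0.18, SD, n = 7), and Cd209f (9.96 ± 0.93, SD, n = 3), Cd209g (8.79 ± 1.31, SD, n = 3) and Lyve1 (10.61 ± 0.49, SD, n = 3) were highest in positive lung cells. The place of lung cells in these orders is not independent of the choice of the genes.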

How the data were processed

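The values are log2 probe set signals of 117 single-colour Affymetrix arrays, used as deposited. Per the submitters' processing notes the authors made them with Partek 6.6 and RMA; its settings are not given in the sources used here. Values ran from 1.63 to 14.2.

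Of 45141 probe sets, 28898 had 1 gene symbol, 551 several and 15692 none. Each of 17097 genes was read from the single-symbol probe set with the highest mean over the 117 arrays. Genes above the array median in at least 3 arrays of a fit entered linear models (lmFit, then eBayes, two-sided) of limma 3.58.1 under R 4.3.3, with Benjamini-Hochberg adjustment over all genes tested and a threshold of 0.05 on the adjusted p. All sorted groups shared one fit, all tumour types another, and a further fit held tumours and sorted cells. The fits were checked on simulated data.

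The 10 genes and the other gene lists were chosen with earlier results of these data known. All 10 are named. Of other lists, the counts are given with at most 3 called genes of the largest difference in a direction, and for likeness the 3 genes of highest Pearson r. Sequences were read with Python 3.11. Sorted samples were not paired by the number in their titles: of 19 pairs with the same number in both groups, 7 had deviations that correlated above 0.1 (range -0.34 to 0.59). Alternatives left out single samples, arrays or filters and changed the scaling, the blocks and the reference cells.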

Additional observations from a re-analysis of the deposited data

Results flagged for a closer look

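In groups of 4 to 10 samples the highest or lowest sample was compared with its nearest neighbour by Dixon's rule. Of 100 sets of 1 gene in 1 group 10 passed the critical value, where chance passes about 1 in 20.

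Prom1-positive liver sample 2 held 9.89 of Folr2, with the next sample at 7.34, and 9.25 of Cd209f, with the next at 6.05. In Prom1-negative liver sample 5 Cd209g was at 7.93, with the next at 5.01. Uterine adenocarcinoma 5 was highest for both lectins, at 7.43 for Cd209f (next 5.07) and 5.67 for Cd209g (next 3.3). Prom1-negative lung sample 7 was lowest for Lyve1, at 6.38 (next 9.65), and for Timd4, at 2.19 (next 4.71). Skin carcinoma 4 was highest for Cd163, at 7.49 (next 4.68), and prostatic adenocarcinoma 8 lowest for Fcrls, at 3.57 (next 4.68). In 1 of the 2 Prom1-negative stomach samples titled with the number 2, Mrc1 was at 3.83 (next 2.96), a level under its array's median. This array had the lowest upper quartile of the series (5.05) and a log2 ratio of 3′ to 5′ Gapdh signal of 2.17.

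The difference between Prom1-positive and Prom1-negative cells varied over prostate, intestine, liver, stomach and uterus for the 9 genes tested, by limma's F test of the interaction. The adjusted p was 6.49e-06 for Folr2, 2.79e-05 for Fcrls, 5.73e-05 for Cd163, 8.28e-05 for Fcna, 0.000225 for Mrc1, 0.00115 for Timd4, 0.00517 for Vsig4, 0.00965 for Cd209g and 0.0402 for Lyve1. For each of these 9 genes the difference was above 0 in uterus and below 0 in liver. In liver it was called for Vsig4, Timd4, Cd163, Folr2 and Lyve1 only, and it was small for Cd209g (-0.19) and Fcrls (-0.21). In uterus it was called for all but Lyve1.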

How the results depend on the processing

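Leaving out 1 sample at a time moved the 13 higher sort calls to between 8 and 14 and the 5 lower ones to between 1 and 7. The higher count was 8 without negative sample 2 or 4 or positive sample 3 of prostate, and the lower count was 3, 2 and 1 without positive samples 3, 4 and 5 of liver. The genes whose sort difference varied between tissues numbered 8 to 9, those that varied between tumour types 9 to 10, the calls of 1 type against the others 10 to 14 higher and 10 to 13 lower, and the calls of tumours against sorted cells 3 to 4 higher and 20 to 23 lower.

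The reference cells decided part of the tumour comparison. Against Prom1-negative cells the lower calls went from 22 to 12, and in uterus the differences of Cd209f (0.64), Cd209g (0.49), Fcrls (0.88), Folr2 (1.0), Mrc1 (0.44) and Timd4 (0.064) turned above 0. Against Prom1-positive cells, or without the arrays with an upper quartile under 6, the higher calls went from 4 to 2. No shares of all genes are given for these settings, so the changed counts say little about the receptors. Calls were gained with the other reference for Lyve1 in liver (-1.74 against Prom1-negative cells) and, against Prom1-positive cells, for Mrc1 in prostate (-2.27) and Cd163 (-3.39) and Fcna (-3.10) in uterus. The change of reference is the alternative's own construction, and for the dim arrays the cause was not tested.

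With the replicate block by title number, 14 sort differences were higher, 5 lower and 9 varied between tissues, and each of the 18 differences called without the block was called with it. With neighbouring sample codes as blocks, a hint from the data and not the design (10 of 13 neighbouring pairs correlated above 0.1), 14 were higher and 7 lower. With each tissue fitted alone, 34 of the 45 pairs could be tested, 9 were higher and 5 lower, and 6 of the 18 calls were lost, which are the 5 in prostate and Lyve1 in liver.

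Of the 18 sort calls, 17 were kept after repeated quantile normalisation and 17 when the upper quartile was a covariate, and 18 under the other filters, summaries and omissions. Of the 24 calls of single tumour types, 20 were kept when the upper quartile was a covariate and 22 or more under each other setting. Leaving out the 4 libraries with markers of another organ was chosen after seeing the data: it gave 14 higher and 6 lower sort calls, 13 higher and 15 lower calls of tumour types, and 4 higher and 21 lower calls of tumours against sorted cells. Values near the array median bound what these arrays can measure.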
